A study of Rattus norvegicus with 6 samples.

Results

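The 36 genes described here encode the enzymes of cholesterol and fatty acid synthesis, the proteins that sense sterols and 3 carriers of intracellular cholesterol. A gene was taken where a tested row of the authors' table carried its symbol, alone or beside other symbols, and the row with the longest locus stood for it. This gave 33 of the 36 genes, among 26459 tested rows in all, with 26 sterol genes and 7 fatty acid genes. Scd, Fads2 and Elovl6 had no tested row under their symbols. The genes were measured by RNA-seq in RUCA-I, an epithelial line from a rat endometrial adenocarcinoma of the Lewis strain. One group was 3 lines with the genotype miR-203 -/- (KO), made independently of each other, and the other was 3 batches of wild-type cells (WT). No sample received a treatment, and all were harvested at 90% confluence from medium with 10% FCS. The sources used here say neither how the knockout was made nor whether each KO line is a single clone. The authors' table gives 1 pooled value per group, so no spread between samples can be shown beside a level, and differences between lines cannot be told apart from those of the genotype.

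The targeted microRNA is printed here because the KO group is defined by it, with its seed (bases 2 to 8) in capitals, as RefSeq gives it on GRCr8 at chr6:137020756-137020777, plus strand. Its own level was not analysed here, so the genotype labels were not checked by it.
rno-miR-203a-3p: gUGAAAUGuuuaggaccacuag

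Cells build cholesterol from acetyl-CoA through mevalonate, isoprenoid diphosphates, squalene and lanosterol, and fatty acids from the same acetyl-CoA through malonyl-CoA. When sterols in the endoplasmic reticulum run low, SCAP carries the SREBP transcription factors to the Golgi, where they are cut and released, while INSIG proteins hold them back when sterols are plentiful. SREBP2 mainly drives genes of the sterol branch and SREBP1 genes of the fatty acid branch, so transcripts of one branch commonly change together.

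The authors tested every row with Cuffdiff. Their deposited table gives q under 0.05 to 277 of 26459 rows, or 1.05%, and an unadjusted p under 0.05 to 1588 rows, or 6.0%. Levels are in FPKM (fragments scaled by transcript length and by the fragments of the library), a scale on which genes can be compared per length, and the read depth behind them is unknown. Of 9 epithelial markers 8 had a tested row, with summed levels of 1405 FPKM in KO and 1407 FPKM in WT cells, led by Epcam at 419 FPKM in KO and 501 FPKM in WT cells. The near-equal sums cover differences in both directions: 6 of the 8 were listed higher in KO cells, with a median log2((KO + 1)/(WT + 1)) of 0.11, and none was called. Krt8 stood at 241 FPKM in KO and 204 FPKM in WT cells and Krt18 at 121 FPKM in KO and 103 FPKM in WT cells. The Krt8 row is 1 of 3 separate loci of that symbol. It spans 999 bp on rn6, where the RefSeq gene on GRCr8 is 7454 bp long. The unadjusted p was 0.0234 for Epcam, 0.0288 for Krt8 and 0.0379 for Krt18 in the authors' deposited table, and the part of these differences in the results was not tested. Markers of leukocytes, endothelium and hepatocytes (6, 5 and 5 genes) had no tested row, and of 6 fibroblast markers Col1a1 alone had one, at 1.17 FPKM in KO and 1.43 FPKM in WT cells. That Col1a1 row spans 553 bp, against 17004 bp for the RefSeq gene, so it covers little of the gene. Of 5 adipocyte markers Adipoq alone had a tested row, at 98.6 FPKM in KO and 119.9 FPKM in WT cells (q = 0.419 in the authors' deposited table). Plin1, Cidec, Lep and Fabp4, the other adipocyte markers, had none.

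None of the 33 genes passed the authors' Cuffdiff test at q under 0.05, beside 1.05% of all tested rows (0.491% higher and 0.556% lower in KO cells). At an unadjusted p under 0.05 there were 7 genes in the authors' deposited table, which is 21.2% of the 33, beside 6.0% of all tested rows and 7.13% of the 11294 rows that average 5 FPKM or more over both groups. By direction, 5 of the 33 genes had such a p and a lower level in KO cells, beside 2.75% of all tested rows. Another 2 of the 33 had such a p and a higher level, beside 3.25%. Most differences were small. In KO cells 24 of the 33 genes were listed lower and 9 higher, and 27 of the 33 lay within 20% of the WT level. The median of log2((KO + 1)/(WT + 1)), a log2 ratio with a pseudocount of 1 FPKM, was −0.13 over the 33 genes and 0.02 over all tested rows, of which 46.3% were listed lower in KO cells. Among rows averaging 5 FPKM or more the quartiles of that ratio were −0.10 and 0.10, and 19 of the 33 genes lay under the lower quartile and 3 over the upper.

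**Figure D1:**
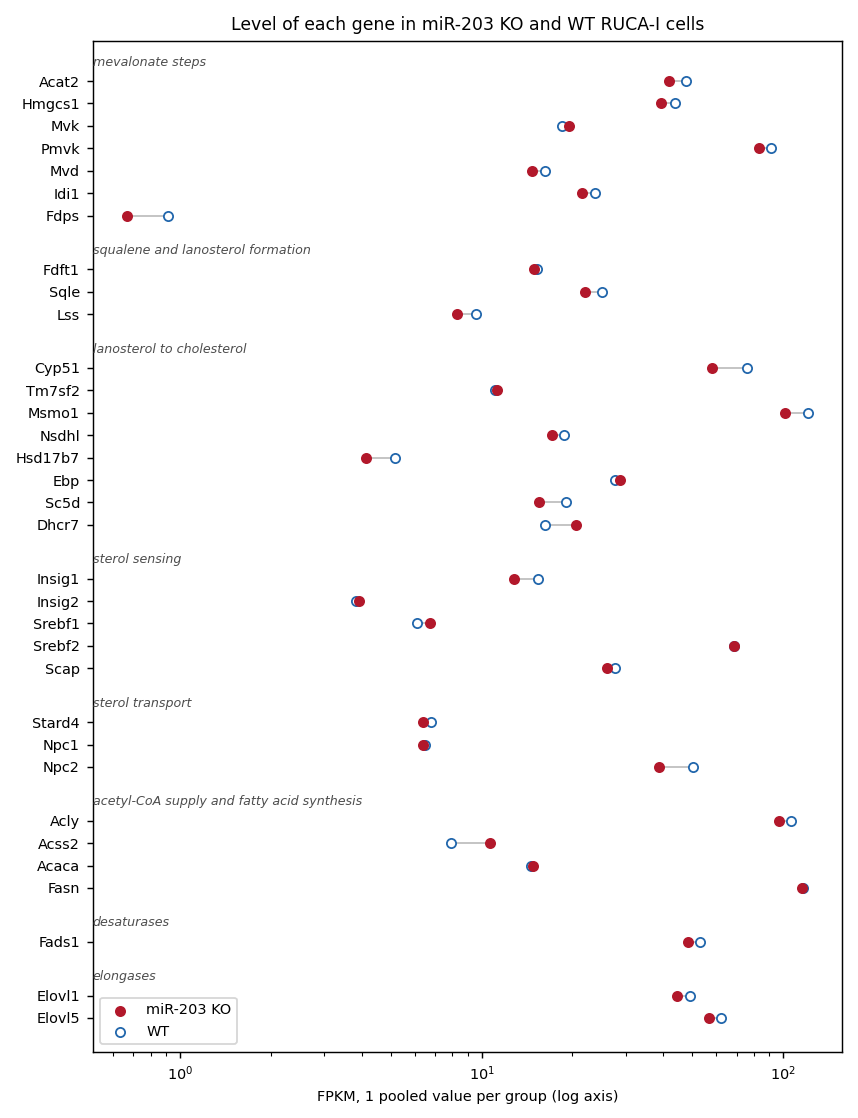
Level of each of the 33 genes on a log axis of FPKM, with 1 pooled value per group: filled points are miR-203 KO cells and open points WT cells, grouped by role. Points of a pair lie close together throughout, the widest gaps being those of Fdps, Cyp51, Hsd17b7, Dhcr7, Npc2 and Acss2, the 6 genes that differ by more than 20%.

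The first 7 genes lead to farnesyl diphosphate, and 6 of them were listed lower in KO cells without passing the test. Hmgcs1, the cytosolic HMG-CoA synthase, stood at 39.5 FPKM in KO and 43.7 FPKM in WT cells. Pmvk, phosphomevalonate kinase, had the highest level of the 7, with 83.0 FPKM in KO and 91.3 FPKM in WT cells. Their KO and WT values lay close together in proportion, as did those of the next enzymes. Mvd, the mevalonate diphosphate decarboxylase, was listed at 14.6 FPKM in KO and 16.2 FPKM in WT cells. Idi1, the isopentenyl diphosphate isomerase, was listed at 21.6 FPKM in KO and 23.8 FPKM in WT cells. Mvk, mevalonate kinase, was the only one of the 7 listed higher in KO cells, at 19.4 FPKM in KO and 18.5 FPKM in WT cells. The median log2 ratio of the 7 was −0.14 with the pseudocount of 1, the range was −0.20 to 0.07, and no unadjusted p in the authors' deposited table was under 0.05.

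For 3 of these genes the row may not be the gene's alone or the value is uncertain. The Hmgcs1 row spans 165274 bp on rn6, where the RefSeq gene on GRCr8 is 20351 bp long. Acat2, the cytosolic acetoacetyl-CoA thiolase, shares its row with Acat2l1 (41.9 FPKM in KO and 47.6 FPKM in WT cells), and another row of the same locus, named Acat2l1 only, was listed at 144 FPKM in KO and 143 FPKM in WT cells. Fdps, farnesyl diphosphate synthase, is split over 4 adjoining loci on chromosome 2. The longest, used here, was listed at 0.666 FPKM in KO and 0.912 FPKM in WT cells, and the highest of the other 3 at 2.33 FPKM in KO and 2.38 FPKM in WT cells. These were by far the lowest levels of any enzyme in the pathway, and whether reads of Fdps were placed elsewhere was not tested.

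The 3 enzymes that join farnesyl diphosphate into squalene and close it to lanosterol were all listed lower in KO cells and none passed. Sqle, squalene epoxidase, stood at 22.0 FPKM in KO and 25.0 FPKM in WT cells. Lss, lanosterol synthase, stood at 8.27 FPKM in KO and 9.58 FPKM in WT cells (p = 0.105 unadjusted and q = 0.957 in the authors' deposited table). Fdft1, squalene synthase, was nearly level, at 15.0 FPKM in KO and 15.2 FPKM in WT cells. Fdft1 has 10 rows on the same locus, of which the row with the highest level is used, and its ratio changed sign when all 10 were summed.

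The 8 enzymes between lanosterol and cholesterol held 5 of the 7 genes with an unadjusted p under 0.05, and these ran in both directions. Cyp51, the cytochrome P450 that demethylates lanosterol (rn6, chromosome 4, 27174293 to 27194638), was listed at 57.9 FPKM in KO and 75.6 FPKM in WT cells. Its log2 fold was −0.38 with p = 0.0007 unadjusted and q = 0.0617 in the authors' deposited table, the smallest q of the 33 genes. With the authors' p adjusted again over rows averaging 1 FPKM or more, Cyp51 passed at q = 0.0483, and over rows averaging 5 FPKM or more at q = 0.0465. Its call therefore turned on which rows the adjustment covered. Sc5d, the sterol desaturase that acts just before the last reduction (rn6, chromosome 8, 46525403 to 46537033), was listed at 15.5 FPKM in KO and 19.1 FPKM in WT cells, with p = 0.0096 unadjusted and q = 0.384 in the authors' deposited table.

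Msmo1, Nsdhl and Hsd17b7 act in turn to remove the methyl groups that Cyp51 leaves, and all 3 were listed lower in KO cells. Msmo1, the methylsterol monooxygenase (rn6, chromosome 16, 26859415 to 26876831), was listed at 101 FPKM in KO and 121 FPKM in WT cells, the highest level among the sterol genes (p = 0.0192 unadjusted and q = 0.582 in the authors' deposited table). Hsd17b7, the ketoreductase of this step (rn6, chromosome 13, 88288126 to 88307999), was listed at 4.13 FPKM in KO and 5.17 FPKM in WT cells, with p = 0.0296 unadjusted and q = 0.711 in the authors' deposited table. Nsdhl, the dehydrogenase between them, was listed at 17.1 FPKM in KO and 18.8 FPKM in WT cells (q = 0.997 in the authors' deposited table).

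Dhcr7, the reductase of the last step in one branch of the pathway, ran the other way. It was listed at 20.6 FPKM in KO and 16.2 FPKM in WT cells (rn6, chromosome 1, 217019465 to 217035257), a log2 fold of 0.35 with p = 0.0036 unadjusted and q = 0.208 in the authors' deposited table. A short separate row of Dhcr7 just beyond that locus was listed at 1.10 FPKM in KO and 0.511 FPKM in WT cells. Tm7sf2, a sterol reductase, and Ebp, a sterol isomerase, were nearly level: Tm7sf2 stood at 11.2 FPKM in KO and 11.0 FPKM in WT cells, and Ebp at 28.7 FPKM in KO and 27.8 FPKM in WT cells. The row of Tm7sf2 also carries Vps51 and that of Ebp also Tbc1d25, so those values are not of the sterol enzymes alone. Over the 8 enzymes 5 were listed lower and 3 higher, with a median log2 ratio of −0.19 and a range of −0.38 to 0.33 with the pseudocount of 1, the widest among the sterol roles.

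The windows around the start sites of the 5 enzymes of this stretch with an unadjusted p under 0.05 are shown because these genes neighbour each other in the pathway and differ in direction. Each holds 250 bases before to 50 after the start as RefSeq gives it on GRCr8, read along the gene. Capitals mark the letters CCAAT, bound by NF-Y, and GGGCGG, bound by Sp1, on either strand; both factors are known partners of SREBP.
Cyp51 (chr4:30991443-30991742, plus strand): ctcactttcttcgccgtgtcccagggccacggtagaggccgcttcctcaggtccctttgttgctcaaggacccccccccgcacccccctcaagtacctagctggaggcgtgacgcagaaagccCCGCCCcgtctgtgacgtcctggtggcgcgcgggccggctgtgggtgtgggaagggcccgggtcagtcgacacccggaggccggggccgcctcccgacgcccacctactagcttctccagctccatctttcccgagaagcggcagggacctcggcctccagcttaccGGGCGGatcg
Msmo1 (chr16:29746863-29747162, plus strand): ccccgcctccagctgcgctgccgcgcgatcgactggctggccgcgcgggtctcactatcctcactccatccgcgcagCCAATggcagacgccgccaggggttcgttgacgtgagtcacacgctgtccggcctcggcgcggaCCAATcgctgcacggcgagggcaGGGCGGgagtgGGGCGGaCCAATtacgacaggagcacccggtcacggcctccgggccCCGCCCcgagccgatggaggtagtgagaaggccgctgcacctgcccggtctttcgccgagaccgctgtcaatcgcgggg
Hsd17b7 (chr13:84722705-84723004, minus strand): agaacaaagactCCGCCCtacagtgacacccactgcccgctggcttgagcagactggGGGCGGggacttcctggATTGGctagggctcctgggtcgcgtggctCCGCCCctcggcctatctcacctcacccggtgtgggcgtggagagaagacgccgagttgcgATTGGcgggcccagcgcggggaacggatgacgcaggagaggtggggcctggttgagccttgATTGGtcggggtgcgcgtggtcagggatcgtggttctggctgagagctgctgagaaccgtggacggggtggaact
Sc5d (chr8:51538228-51538527, minus strand): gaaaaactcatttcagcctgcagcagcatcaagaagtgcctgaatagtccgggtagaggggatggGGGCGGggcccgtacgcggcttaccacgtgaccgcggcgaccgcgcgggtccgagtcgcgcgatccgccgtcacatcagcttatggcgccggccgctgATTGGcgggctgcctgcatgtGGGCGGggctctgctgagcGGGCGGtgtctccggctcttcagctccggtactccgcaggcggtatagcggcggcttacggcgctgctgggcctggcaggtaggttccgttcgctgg
Dhcr7 (chr1:208444184-208444483, plus strand): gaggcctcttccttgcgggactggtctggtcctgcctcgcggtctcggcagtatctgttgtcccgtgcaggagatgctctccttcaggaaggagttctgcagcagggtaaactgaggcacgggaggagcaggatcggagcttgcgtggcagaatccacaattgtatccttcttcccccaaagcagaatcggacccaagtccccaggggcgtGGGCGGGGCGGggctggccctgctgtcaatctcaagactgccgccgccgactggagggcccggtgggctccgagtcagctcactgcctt

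CCAAT was found 3 times in the windows of Msmo1 and Hsd17b7, 1 time in that of Sc5d and not in those of Cyp51 and Dhcr7. GGGCGG was found 3 times each in the windows of Msmo1, Hsd17b7 and Sc5d and 2 times each in those of Cyp51 and Dhcr7, where the Dhcr7 matches overlap each other. Of the 36 genes, 29 had a window, and Srebf1 had 2, which makes 30 windows. CCAAT was in 22 of the 30 (73.3%), beside 37.5% of all 33469 windows and 38.4% of the 7061 windows of genes with a row of at least 5 FPKM on average. GGGCGG was in 24 of the 30 (80.0%), beside 33.1% of all windows and 64.8% of the windows of those genes. The sterol regulatory element, searched as TCACNCCAC on both strands, was in none of the 30 windows and in 1.12% of all windows, which says only that these letters are not in these windows. Of the 5 genes printed, CCAAT was thus in 3 and GGGCGG in all 5. Dhcr7 was the only gene listed higher in KO cells whose window lacked CCAAT. The windows of Mvk, Tm7sf2, Ebp, Insig2, Srebf1, Srebf2 and Acss2, also listed higher, hold it. Genes listed lower were found both with it, as Msmo1, Hsd17b7 and Sc5d, and without it, as Acat2, Cyp51, Npc1, Scap and Elovl1.

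**Figure D2:**
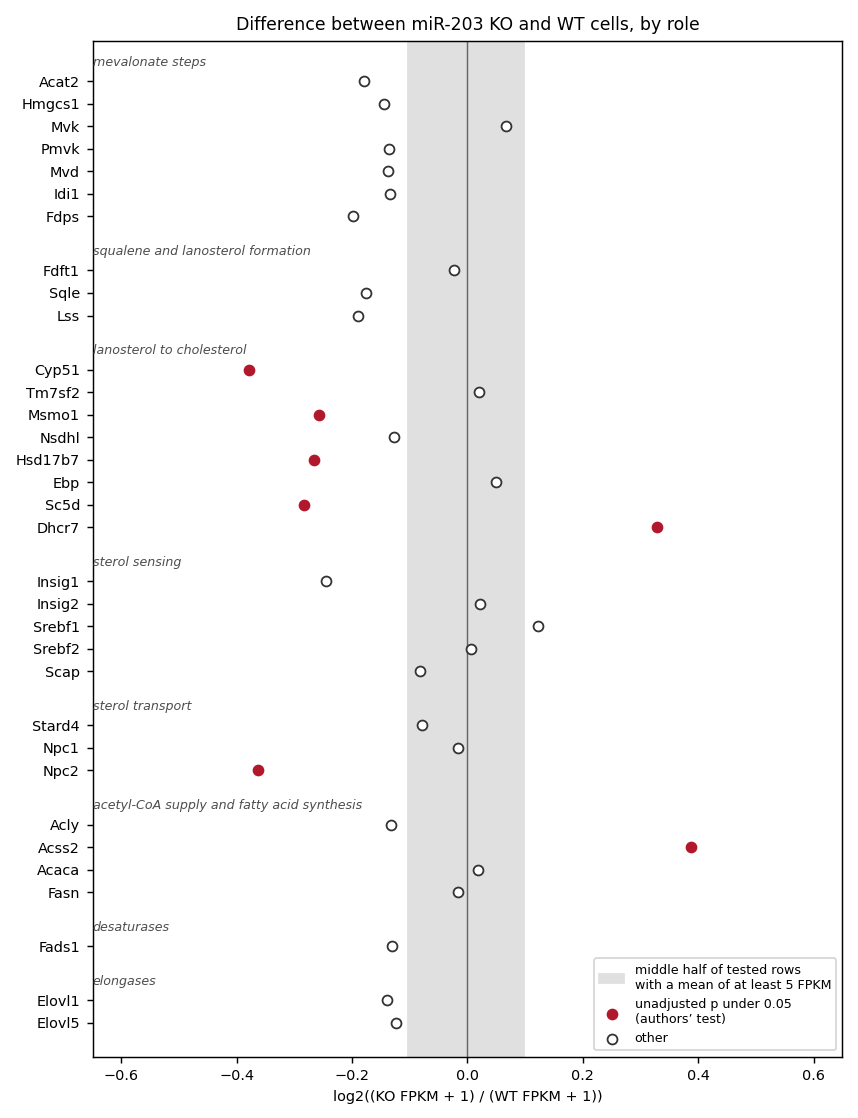
Log2 ratio of KO over WT (pseudocount of 1 FPKM) of each of the 33 genes by role, with filled points for the 7 genes with an unadjusted p under 0.05 in the authors' deposited table. The grey band runs between the quartiles of rows averaging 5 FPKM or more (−0.10 to 0.10); Cyp51 and Npc2 lie farthest to the left and Acss2 and Dhcr7 farthest to the right.

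Of the 5 genes of sterol sensing, 2 were listed lower and 3 higher in KO cells, and none passed. Srebf2, which encodes SREBP2, was listed at 68.8 FPKM in KO and 68.5 FPKM in WT cells. Scap, its escort, was listed at 26.1 FPKM in KO and 27.6 FPKM in WT cells. Insig1, the INSIG gene that is itself a target of SREBP, was listed at 12.8 FPKM in KO and 15.3 FPKM in WT cells, with p = 0.0522 unadjusted and q = 0.836 in the authors' deposited table. Insig2, its paralog, was level at 3.91 FPKM in KO and 3.84 FPKM in WT cells. Srebf1, which encodes SREBP1, was listed at 6.76 FPKM in KO and 6.12 FPKM in WT cells (q = 0.997 in the authors' deposited table). Per length, the Srebf2 row used here was thus higher than the Srebf1 row in both groups. The Srebf1 row spans 81835 bp on rn6, where the RefSeq gene on GRCr8 is 22013 bp long, so neighbouring transcripts may be merged into it. Srebf2 has 4 rows on its locus, of which the highest is used. Transcript levels do not show how much of either factor is cut and active. The median log2 ratio of the 5 was 0.0058.

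Npc2, the soluble carrier that takes cholesterol to NPC1 inside lysosomes, had the second smallest p of all 33 genes. It was listed at 38.7 FPKM in KO and 50.1 FPKM in WT cells (rn6, chromosome 6, 108467407 to 108491144), a log2 fold of −0.37 with p = 0.001 unadjusted and q = 0.0814 in the authors' deposited table. It stayed short of the threshold over rows averaging 5 FPKM or more, at q = 0.0607. Npc1, the membrane protein it hands cholesterol to, was level at 6.39 FPKM in KO and 6.48 FPKM in WT cells. Stard4, a cytosolic sterol carrier, was listed at 6.40 FPKM in KO and 6.82 FPKM in WT cells. The pair that works together in the lysosome was therefore not listed as moving together, and the difference between Npc2 and Npc1 was not tested.

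Fatty acid synthesis was led by Fasn, fatty acid synthase, which had the highest level of all 33 genes in KO cells and was nearly level between the groups, at 115 FPKM in KO and 116 FPKM in WT cells. Acaca, the acetyl-CoA carboxylase that makes malonyl-CoA, was level too, at 14.8 FPKM in KO and 14.6 FPKM in WT cells. The 2 enzymes that supply cytosolic acetyl-CoA were listed in opposite directions. Acly, which makes it from citrate, stood at 97.0 FPKM in KO and 106 FPKM in WT cells (q = 0.997 in the authors' deposited table). Acss2, which makes it from acetate (rn6, chromosome 3, 151032986 to 151075857), stood at 10.7 FPKM in KO and 7.92 FPKM in WT cells. Its log2 fold of 0.43 was the largest of the 33 genes in the higher direction, with p = 0.00185 unadjusted and q = 0.13 in the authors' deposited table.

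The elongases and the desaturase among the 33 genes were listed slightly lower in KO cells. Elovl1, which extends saturated and monounsaturated very long chains, stood at 44.4 FPKM in KO and 49.0 FPKM in WT cells. Elovl5, which extends polyunsaturated chains, stood at 56.9 FPKM in KO and 62.1 FPKM in WT cells. Fads1, a desaturase of polyunsaturated chains, stood at 48.4 FPKM in KO and 53.1 FPKM in WT cells. These 3 log2 ratios lay between −0.14 and −0.12 with the pseudocount of 1, and the q of each was 0.997 in the authors' deposited table. Elovl7, an elongase outside the 33 genes, was listed higher, at 21.8 FPKM in KO and 19.1 FPKM in WT cells (q = 0.957 in the authors' deposited table). The Fads1 row spans 142436 bp on rn6, where the RefSeq gene on GRCr8 is 15014 bp long with Fads2 beside it, so reads of Fads2 may be part of it. The row of Scd2, a stearoyl-CoA desaturase gene, was listed at 426 FPKM in KO and 370.4 FPKM in WT cells. This was the highest level of any gene of these pathways looked at. RefSeq lists Scd as another name of Scd2 but also gives a window under the symbol Scd itself. The Scd2 row was therefore not taken as that of Scd and stands outside the counts of the 33 genes. It spans 76852 bp against 13060 bp in RefSeq, and its q was 0.948 in the authors' deposited table. Of those 33 rows, 7 were more than 2 times as long as the RefSeq gene, among them Hmgcs1, Sqle and Srebf1, so neighbouring transcripts may be merged into them.

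Set side by side, the sterol and the fatty acid genes had nearly the same median. It was −0.14 over 26 sterol genes and −0.12 over 7 fatty acid genes (log2 ratio, pseudocount of 1), a difference of −0.012. Among sterol genes 19 of 26 were listed lower in KO cells, and among fatty acid genes 5 of 7. The summed level of the sterol genes was 692 FPKM in KO and 771 FPKM in WT cells, a ratio of 0.897, and that of the fatty acid genes was 387 FPKM in KO and 409 FPKM in WT cells, a ratio of 0.946. The median of the 7 fatty acid genes rested on few of them: without the 2 elongases it was −0.016, and the difference became −0.12. Without the desaturase it was −0.070, and without the 4 genes of acetyl-CoA supply and synthesis −0.13. A difference between the branches was therefore not shown either way, and the table offers no test of it over samples. With each group scaled to a sum of 1000000 FPKM, the median of all rows averaging 5 FPKM or more was −0.16 in place of −0.0062, and 31 of the 33 genes were listed lower. Mvk, Tm7sf2, Ebp, Insig2, Srebf1, Srebf2 and Acaca change direction under that scaling.

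Further genes of these pathways, from 5 lists, gave no called row either, again beside 1.05% of all tested rows. Of 15 further genes of sterol synthesis and sensing 8 were listed higher and 7 lower in KO cells, with a median log2 ratio of 0.03. Cyb5r3, the reductase that passes electrons to cytochrome b5, stood at 59.1 FPKM in KO and 52.6 FPKM in WT cells (p = 0.142 unadjusted in the authors' deposited table). Pdss2, a subunit of the enzyme that makes the ubiquinone side chain, stood at 7.26 FPKM in KO and 6.34 FPKM in WT cells. Among 17 measured genes of sterol uptake, efflux and oxysterols 11 were listed higher and 6 lower, with a median of 0.04. The smallest p of these belonged to the row of Lipa, the lysosomal acid lipase that frees cholesterol from its esters, at 22.4 FPKM in KO and 17.2 FPKM in WT cells (p = 0.00165 unadjusted and q = 0.118 in the authors' deposited table). That row also carries Ifit1bl, so the value is not of Lipa alone.

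On the fatty acid side, 8 of 15 further genes of synthesis, elongation and desaturation were listed higher and 7 lower, with a median log2 ratio of 0.02. Hacd2, a dehydratase of the elongation cycle, stood at 9.09 FPKM in KO and 7.37 FPKM in WT cells (p = 0.0239 unadjusted and q = 0.646 in the authors' deposited table). Mecr, the last reductase of mitochondrial fatty acid synthesis, stood at 4.01 FPKM in KO and 5.02 FPKM in WT cells. Among 15 genes of fatty acid activation and glycerolipids 7 were listed higher and 8 lower, with a median of −0.02. Lpin3, a phosphatidate phosphatase, stood at 26.9 FPKM in KO and 21.8 FPKM in WT cells (p = 0.0102 unadjusted and q = 0.401 in the authors' deposited table). Gpam, which starts glycerolipid synthesis, stood at 22.1 FPKM in KO and 19.1 FPKM in WT cells. Fatty acid oxidation had the highest median of the 5 lists, 0.08, with 11 of 17 genes listed higher and 6 lower. Acaa2, the mitochondrial thiolase, went against that count, at 7.37 FPKM in KO and 10.7 FPKM in WT cells (p = 0.0404 unadjusted and q = 0.789 in the authors' deposited table). Eci2, an enoyl-CoA isomerase, stood at 56.1 FPKM in KO and 47.6 FPKM in WT cells.

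**Figure D3:**
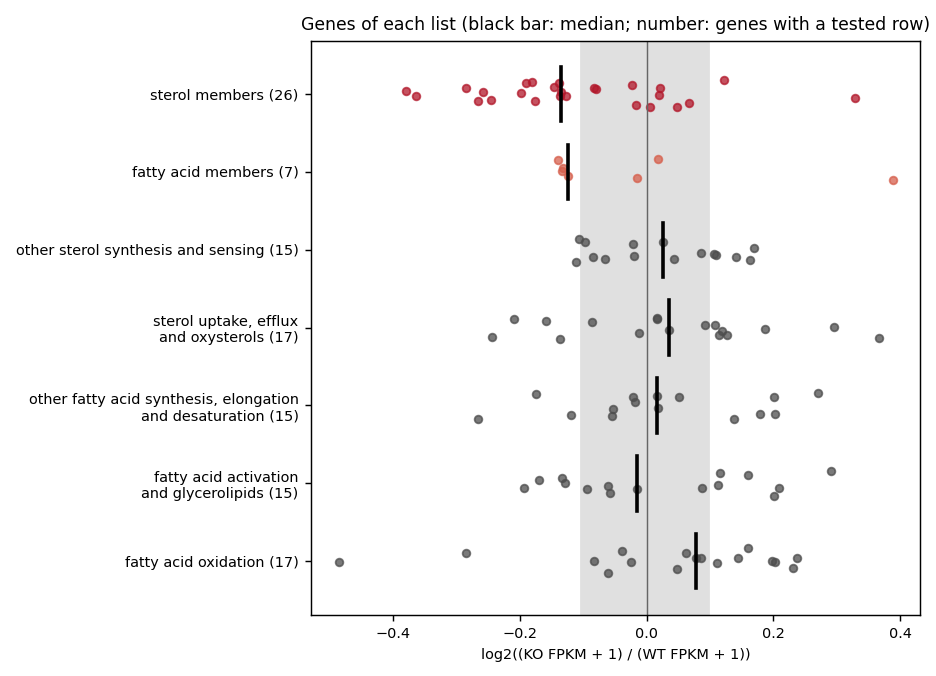
Log2 ratio of KO over WT (pseudocount of 1 FPKM) for each gene with a tested row in the sterol and fatty acid groups and in the 5 lists of further genes, with a black bar at each median and a grey band between the quartiles of rows averaging 5 FPKM or more. The bars of the sterol genes (−0.14) and fatty acid genes (−0.12) lie left of the band, and those of the 5 lists, −0.02 to 0.08, lie inside it.

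The rows on either side of a gene along its chromosome were looked at in the same way. Of the 98 rows averaging 5 FPKM or more within 5 Mb of Acss2, 89.8% were listed higher in KO cells, with a median log2 ratio of 0.22, while Acss2 itself had 0.39. Lpin3 lies on the same part of chromosome 3, and 88.7% of the rows around it were listed higher. On the same chromosome the medians were 0.18 around Acss1 and 0.13 around Osbpl2, genes of the further lists chosen after their values were seen. At lower coordinates of chromosome 3, far from Acss2, the medians were near 0. They were 0.0016 around Agpat2, 0.03 around Nr1h3 and 0.03 around Hsd17b12, also of the further lists. Around the rest of the 33 genes the medians lay between −0.11 and 0.05. Around Dhcr7 the median was 0.03 over 137 rows, around Cyp51 −0.05 over 38 rows, and around Npc2 0.05 over 75 rows, of which 72.0% were listed higher. Insig1 had the lowest, −0.11 over 16 rows. The part of these neighbourhoods in the value of Acss2 or Insig1 was not tested. The rows around Cyp51, Npc2 and Dhcr7 did not share the size of their ratios, which were −0.38, −0.36 and 0.33.

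**Figure D4:**
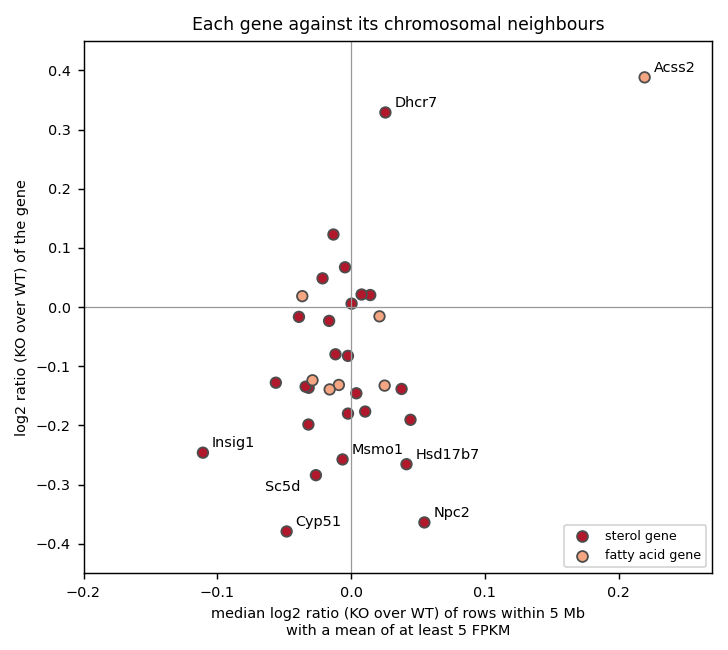
Log2 ratio of KO over WT of each of the 33 genes (vertical, pseudocount of 1 FPKM) against the median of the rows within 5 Mb averaging 5 FPKM or more (horizontal). Acss2 lies alone on the right, with 0.22 around it, and Cyp51, Npc2 and Dhcr7 lie far from 0 although the rows around them are near it.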

How the data were processed

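RNA-seq of 3 KO and 3 WT samples was analysed from 1 gene table. Per the labels' protocols, libraries were stranded (dUTP method). The submitters' processing notes name Cuffdiff 2.2.1.3, Cufflinks 2.2.1, a TopHat version listed as 0.9, and the build rn6; the sources used here do not give options or annotation. The deposited columns are, per the file headers, 1 FPKM per group, the authors' log2 fold of KO over WT, a test statistic (a score), and p-values and q-values. The deposited numbers use decimal commas. Of 26751 deposited rows 292 were not tested by the authors and were left out. The q-values equalled Benjamini-Hochberg values over the tested rows when recomputed.

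No test of KO against WT was run here, since the table holds no values per sample. Where loci of a symbol tied in length, the row with the higher mean FPKM was taken. Motifs and RefSeq lengths come from RefSeq tables of GRCr8, matched by symbol, and no coordinates were converted. The code for medians and Benjamini-Hochberg values was checked on simulated data. The genes and lists were chosen with earlier results of these data known. Named genes are all members, the 2 genes with the smallest p of each further list and the highest marker of each marker list; 1 gene that this rule takes is not reported here. Beyond that rule, neighbouring rows, Scd2, Scd4, Acat2l1 and separate rows were added after values were seen. So were Krt8, Krt18, Elovl7, Acss1, Osbpl2, Agpat2, Nr1h3 and Hsd17b12. Python 3.11.15, pandas 2.3.3, NumPy 2.4.6 and matplotlib 3.10.9 were used.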

Additional observations from a re-analysis of the deposited data

How the results depend on the processing

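With no spread between samples, a median was taken to have moved where it shifted by at least 0.05 on the log2 scale. The sterol median lay between −0.29 and −0.082 under 17 alternatives and moved under 2: −0.29 with each group scaled to 1000000 FPKM and −0.082 without the mevalonate steps. The fatty acid median lay between −0.28 and −0.016 under 13 alternatives. It moved to −0.28 with that scaling, to −0.016 without the elongases, and to −0.070 without the desaturase, with Srebf1 added or with Scd2 added. The difference between the branches moved to 0.041 without the mevalonate steps, −0.12 without the elongases, −0.066 without the desaturase or with Scd2 added, and −0.067 with Srebf1 moved. Its sign was also positive, at 0.0077, with a pseudocount of 5. The summed ratios became 0.801 for sterol and 0.844 for fatty acid genes with the scaling to 1000000. Over the 33 single genes, ratios of 7 changed sign with that scaling, 2 when rows were summed, 1 under quantile normalization and none under pseudocounts of 0.1 and 5, centring or the row with the highest mean. Of the 33 genes 1 (Cyp51) was called with p adjusted over the rows averaging 1 or more FPKM, or 5 or more, which are fewer, and 2 (Cyp51 and Npc2) at q under 0.1. The 277 calls over the whole table became 173 with the minimum of 5 FPKM and 175 at q under 0.01. Leaving out Acss2 or shared and split loci, and adding Scd2, were chosen after seeing the data. No paired analysis was possible because samples are pooled within each group, and leaving out each replicate was not run for the same reason. Depth per sample is unknown, so the size of difference that could have been called cannot be given.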

Other observations

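Several genes of these pathways have more than 1 tested row, and the further rows are given here as values. Of the 33 genes 10 have several rows. Srebf2 has 4 rows on the same locus, of which the next highest after the one used was listed at 17.3 FPKM in KO and 17.8 FPKM in WT cells. A second row of Elovl1 was listed at 4.20 FPKM in KO and 6.08 FPKM in WT cells, and a second row of Fasn at 4.05 FPKM in KO and 2.94 FPKM in WT cells, both with q = 0.997 in the authors' deposited table. Scd4, a stearoyl-CoA desaturase gene beside Scd2, was listed at 4.99 FPKM in KO and 5.82 FPKM in WT cells, against the higher KO level of the Scd2 row. The direction of these further rows is of loci whose extent is uncertain, and none was called in the authors' deposited table.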
